A study of Bos taurus with 7 samples.

Results

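Ephrins, semaphorins, slits, netrins and their receptors were examined in the rumen epithelium, the stratified lining of the bovine forestomach, of 7 Holstein calves. The genes were taken by name: every array probe, control spots aside, whose listed gene was an Eph receptor, an ephrin, a semaphorin, a plexin of class A to D, a neuropilin, a SLIT, a ROBO or a netrin, with the endothelial receptor ROBO4 left out. The rule found 54 genes of 14961 on the array, each reported by 1 of the 15008 probes: 13 Eph receptors, 8 ephrins, 17 semaphorins, 9 plexins and neuropilins, and 7 genes of the SLIT, ROBO and netrin systems. The HAY group held 3 Holstein calves given forage (calves 9, 10 and 13), and the CON group held 4 Holstein calves without forage (calves 8, 11, 12 and 14). The series concerns forage and calf starter around weaning, and its design text names 3 weeks after weaning. Ages, sexes and doses were not given in the sources used here. Each calf gave 1 single-colour array of total RNA from the whole epithelial sample. The comparison asked which of these genes differed between the epithelia of forage-fed and forage-free calves.

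Eph receptors are receptor tyrosine kinases that read ephrins on the surface of neighbouring cells, and both partners can signal into their own cell, which drives repulsion, sorting and boundary formation in epithelia as well as in the nervous system. Class A receptors bind mostly the lipid-anchored ephrin-A proteins and class B receptors the transmembrane ephrin-B proteins. Semaphorins, secreted or membrane-bound, act through plexins, which switch off small GTPases, and the secreted class often needs a neuropilin as co-receptor. SLIT proteins signal through ROBO receptors, and netrins through DCC and UNC5 receptors, with NTN4 also being a component of basement membranes.

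The scanner files give the 60-base oligonucleotide that reports each gene. The first 30 bases are shown here, 5′ to 3′ as listed, for the 8 tested members whose HAY and CON calves did not overlap, because the results below turn on these probes.
EPHB6: tcaaggtgagctgtccgctcaacttcctga
EPHB3: accaaggaccgtgcaggaactccgaccagc
EPHA4: tggaagttcgaggctcctgtgtcaacaact
SEMA3C: cttaatgttgtcttaagtgggacttatgct
SEMA4G: gctcccccatttccctcgggtgaagatgac
PLXNA3: tgcctcgaccacctatttatttaatttatc
PLXNC1: cattggtcatacattccttaaaatcacttc
NRP2: atgacaaagatttgcagctcccttcaggat
Coordinates are those of the files, on the UMD_3.1 cattle genome. The EPHB6 probe lies on chromosome 4 from 106993264 to 106993559 and the NRP2 probe on chromosome 2 from 94525188 to 94528110. Both span more genome than the 60 bases of the probe, as did 9 of the 54 member probes, so their sequence is interrupted in the genome. The other 6 are unbroken: EPHB3 on chromosome 1 from 83202440 to 83202499, EPHA4 on chromosome 2 from 110397225 to 110397284, SEMA3C on chromosome 4 from 40345529 to 40345588, SEMA4G on chromosome 26 from 21690541 to 21690600, PLXNA3 on chromosome X from 40441443 to 40441502 and PLXNC1 on chromosome 5 from 24224477 to 24224536. Exon and UTR annotation of this build was not used here.

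Related genes can share letters, and the longest run common to any 2 member probes was 13 bases, in the paralogous plexins PLXNA2 and PLXNA4, where it stands in capitals.
PLXNA2: acgTGATCAAGAACCCtcagtttgtatttg
PLXNA4: ttgggtcaacaTGATCAAGAACCCccaatt
For every other member the longest run shared with another member's probe was 7 to 12 bases. These runs were searched on the listed strand among the member probes only.

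Signals are given as log2 of the background-subtracted intensity minus the 75th percentile of the same array, so that 0 is that percentile. Because probes bind with different strength, levels were compared between calves for 1 probe and not between genes. All 7 arrays lay on 1 slide, with 81.5 to 84.6% of spots well above background and 10 to 20 saturated spots per array, none of them in the members. The labelled tissue was checked against a list of rumen epithelium markers (keratins, desmosomal genes, ketogenic and transport genes), of which 20 of 21 genes on the array were well above background in all 7 calves. Its summed normalised signal was 1130 to 1249 in HAY and 898 to 1110 in CON, with the 75th percentile of an array as 1. The exception, KRT4, was well above background on 4 arrays. Its log2 values were -8.39, -7.73 and -7.81 in HAY and -4.83, -5.98, -6.38 and -5.45 in CON, without overlap. The HAY values lay near those of NTN1 (-7.82, -7.74 and -8.16), a member well above background on no array. The lack of overlap in KRT4 therefore rests on dim HAY values, and its difference is no measured fold.

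Of the 54 members, 40 were well above background on all 7 arrays and 44 on at least 3, and only these 44 were tested. The 4 between were EPHA10, SEMA3D, SEMA5B and PLXNC1. The members EPHA3, EPHB1, EFNB2, SEMA3A, SEMA4D, SEMA6D, PLXNA4 and PLXNB3 were well above background on 1 or 2 arrays, and EPHA7 and NTN1 on none. At the other end, EPHA1, EPHA8, EFNA1, EFNA3, EFNA4, SEMA4A and ROBO1 exceeded the 75th percentile of the array in all 7 calves.

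No member passed the adjustment over the 12570 genes tested (limma with Benjamini-Hochberg adjustment, lowest adjusted p = 0.125), where 1 gene in all, or 0.00796%, passed. At an unadjusted limma p under 0.05 stood 10 of the 44 tested members (22.7%), 7 higher and 3 lower in HAY, against 13.9% of all genes tested, 6.78% higher and 7.17% lower. Over all genes that made 852 higher and 901 lower, a split that was 1237 and 774 with median centring, 718 and 1007 with normexp and 664 and 1145 with slide columns blocked. The calves of the groups did not overlap in 8 members (18.2%), 5 higher and 3 lower in HAY, against 11.8% of all genes, 6.53% higher and 5.3% lower. Of the 4 tested members below background on some arrays, PLXNC1 passed the filter on dim probes through CON alone. The difference between the shares of members and of all genes was not tested. Of the 44, 25 had higher and 19 (43.2%) had lower HAY means, where 45.5% of all genes had lower ones. The median log2 difference was 0.06 beside 0.03 over all genes, and 7 members were at least 2-fold apart by the fitted difference, as were 6.62% of all genes at any p. The number lower at an unadjusted p under 0.05 was 8 without HAY calf 9 and 7 without CON calf 14, where 9.51% and 9.43% of all genes were lower. The number without overlap was then 18 and 14, beside 31% and 22.8% of all genes. With calves 8 and 13 both left out, 3 members were higher and 3 lower at an unadjusted p under 0.05, beside 2.5% and 3.45% of all genes. All HAY arrays lay in row 1 of the slide and all CON arrays in row 2, so the effect of the row cannot be told apart from that of forage.

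**Figure D1:**
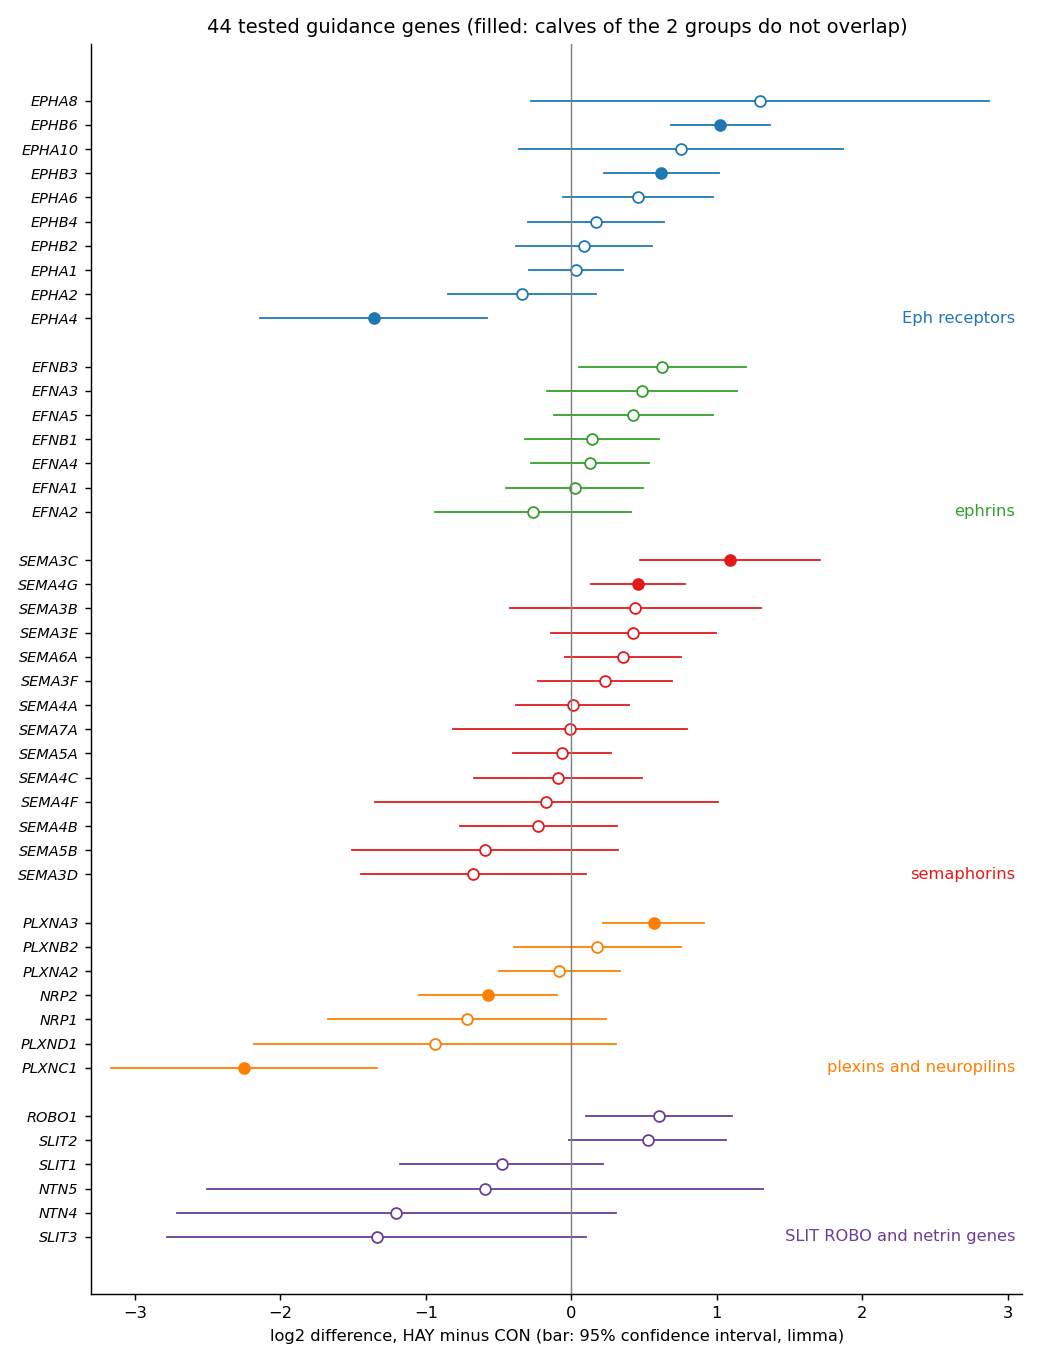
Log2 differences (HAY minus CON) of the 44 tested guidance genes, by role, with 95% confidence intervals from limma; filled points mark the 8 genes whose calves do not overlap between groups. Intervals clear of 0 are seen on both sides, and the differences run from -1.36 (EPHA4) to 1.29 (EPHA8), apart from PLXNC1, whose HAY values were at background and whose plotted point is no measured fold.

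Among the Eph receptors, 8 of the 10 tested had higher HAY means (all genes: 54.5%), and their median log2 difference was 0.31. The median was 0.08 with normexp background correction, 0.09 with no filter on dim probes and 0.17 over receptors above background in all 7 calves. Of these receptors, 3 stood at an unadjusted p under 0.05, EPHB6 and EPHB3 higher in HAY and EPHA4 lower, and in all 3 the groups did not overlap. Over all genes 13.9% stood under 0.05 and 11.8% did not overlap. EPHB6, an Eph receptor without kinase activity that pairs with other family members, had the smallest p of all members. Its log2 signal was -0.37, -0.74 and -0.52 for HAY (calves 9, 10, 13 in turn) against -1.73, -1.50, -1.45 and -1.60 for CON (calves 8, 11, 12, 14 in turn). Every HAY calf was above every CON calf, with 0.71 log2 units between the nearest 2. HAY averaged -0.55 ± 0.19 (SD, n = 3) and CON averaged -1.57 ± 0.12 (SD, n = 4), which is a level 2.03-fold higher with forage (95% confidence interval 1.60 to 2.57, limma adjusted p = 0.125). Over all 16 alternative settings, some of which cannot move it, the EPHB6 difference stayed between 0.93 and 1.12 log2 units, with an unadjusted p under 0.05 in each.

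EPHB3, an ephrin-B receptor that positions cells in the intestinal crypt, had signals of -0.38, -0.04 and 0.14 in HAY calves 9, 10 and 13. The CON signals, for calves 8, 11, 12 and 14 in turn, were -0.71, -0.55, -0.66 and -0.93, all below the HAY values. The difference was 1.53-fold (limma adjusted p = 0.248, log2 difference 0.62, SE 0.17), and it was 0.50 with an unadjusted p of 0.0568 without calves 8 and 13. EPHA4, which binds ephrins of both classes, went the other way. Its HAY calves stood at -3.89, -4.39 and -4.98 and its CON calves at -2.49, -2.86, -3.34 and -3.55, with calf 8 the highest and calf 13 the lowest of all. EPHA4 was 2.57-fold lower in HAY (limma adjusted p = 0.219, log2 difference -1.36, SE 0.33), or lower by a log2 difference of -0.89 both with normexp and without calves 8 and 13.

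The remaining class B receptors showed little separation. EPHB2, a receptor of intestinal progenitor cells, had HAY values of -2.10, -2.45 and -2.16 and CON values of -1.90, -2.41, -2.64 and -2.34. The groups were intermixed, and the 95% interval of the HAY to CON ratio was 0.769 to 1.47. EPHB4, the ephrin-B2 receptor of venous endothelium, had HAY values of -6.71, -6.15 and -6.83 and CON values of -6.72, -6.99, -6.59 and -6.62, an interval of 0.812 to 1.55. Its difference of 0.17 turned to -0.11 with normexp.

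In class A, EPHA1 varied least of all tested members. Its values were 3.88, 4.18 and 4.13 in HAY and 3.98, 4.19, 3.99 and 3.96 in CON, a spread of 0.31 log2 units over the 7 calves. The 95% interval of the HAY to CON ratio was 0.817 to 1.28, and the sign of the difference of 0.03 turned with quantile normalization (-0.07). EPHA2, the ephrin-A1 receptor of keratinocytes, stood at -4.72, -4.45 and -4.15 in HAY and at -4.39, -3.90, -4.34 and -3.77 in CON (log2 difference -0.34, interval -0.85 to 0.17). These groups overlapped. EPHA8, best known from the developing brain, had values of 4.17, 4.61 and 3.27 in HAY and 1.92, 3.74, 3.86 and 1.37 in CON. CON calves 8 and 14 lay more than 1 log2 unit below the other 5 calves, and the difference of 1.29 had an interval from -0.28 to 2.87. EPHA6 differed by 0.46 (interval -0.06 to 0.97) and EPHA10, dim in CON, by 0.75 (interval -0.36 to 1.87). EPHA6 was 0.26 with normexp, 0.27 without HAY calf 13 and 0.18 without calves 8 and 13, and EPHA10 was 0.09 with normexp and 0.22 without HAY calf 9.

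Ephrins, the ligands, had higher means in HAY for 6 of 7 tested genes (all genes: 54.5%), with a median log2 difference of 0.14, and in none were the groups free of overlap. EFNB3, a transmembrane ephrin, was the 1 ephrin at an unadjusted p under 0.05 (all genes: 13.9%). It stood at -1.53, -0.77 and -0.82 for HAY (calves 9, 10, 13 in turn) against -2.06, -1.43, -1.72 and -1.46 for CON (calves 8, 11, 12, 14 in turn). HAY calf 9 lay among the CON calves. The difference was 1.54-fold (limma adjusted p = 0.329, log2 0.63, SE 0.25). The unadjusted p was 0.05 or more without HAY calf 10, where the difference was 0.49, and likewise without HAY calf 13 (0.52), CON calf 8 (0.49) or CON calf 12 (0.61), with slide columns blocked (0.49) and without calves 8 and 13 (0.39).

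EFNA1, the main partner of EPHA2 in epithelia, showed 0.86, 0.92 and 0.34 in HAY and 0.99, 0.69, 0.63 and 0.43 in CON. The groups were intermixed, and the interval of the ratio was 0.733 to 1.41. EFNB1, a ligand of the class B receptors, had -4.55, -4.20 and -4.24 in HAY and -4.15, -4.82, -4.61 and -4.29 in CON, an interval of 0.800 to 1.52. EFNA5, second among the ephrins by p, had -5.71, -5.15 and -5.62 in HAY and -6.21, -6.14, -5.88 and -5.44 in CON. CON calf 14 lay within the HAY range, and the difference of 0.43 (interval -0.12 to 0.97) was 0.07 with normexp.

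The genes EFNA1, EFNA3 and EFNA4 are neighbours on chromosome 3, their probes lying between 15522001 and 15587641. Gaps of 45.3 kb and 20.2 kb separate them. Their log2 differences were 0.02, 0.49 and 0.13, with intervals from -0.45 to 0.49, from -0.17 to 1.14 and from -0.28 to 0.53, all of which include 0. EFNA2 had a difference of -0.26 (interval -0.94 to 0.41).

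**Figure D2:**
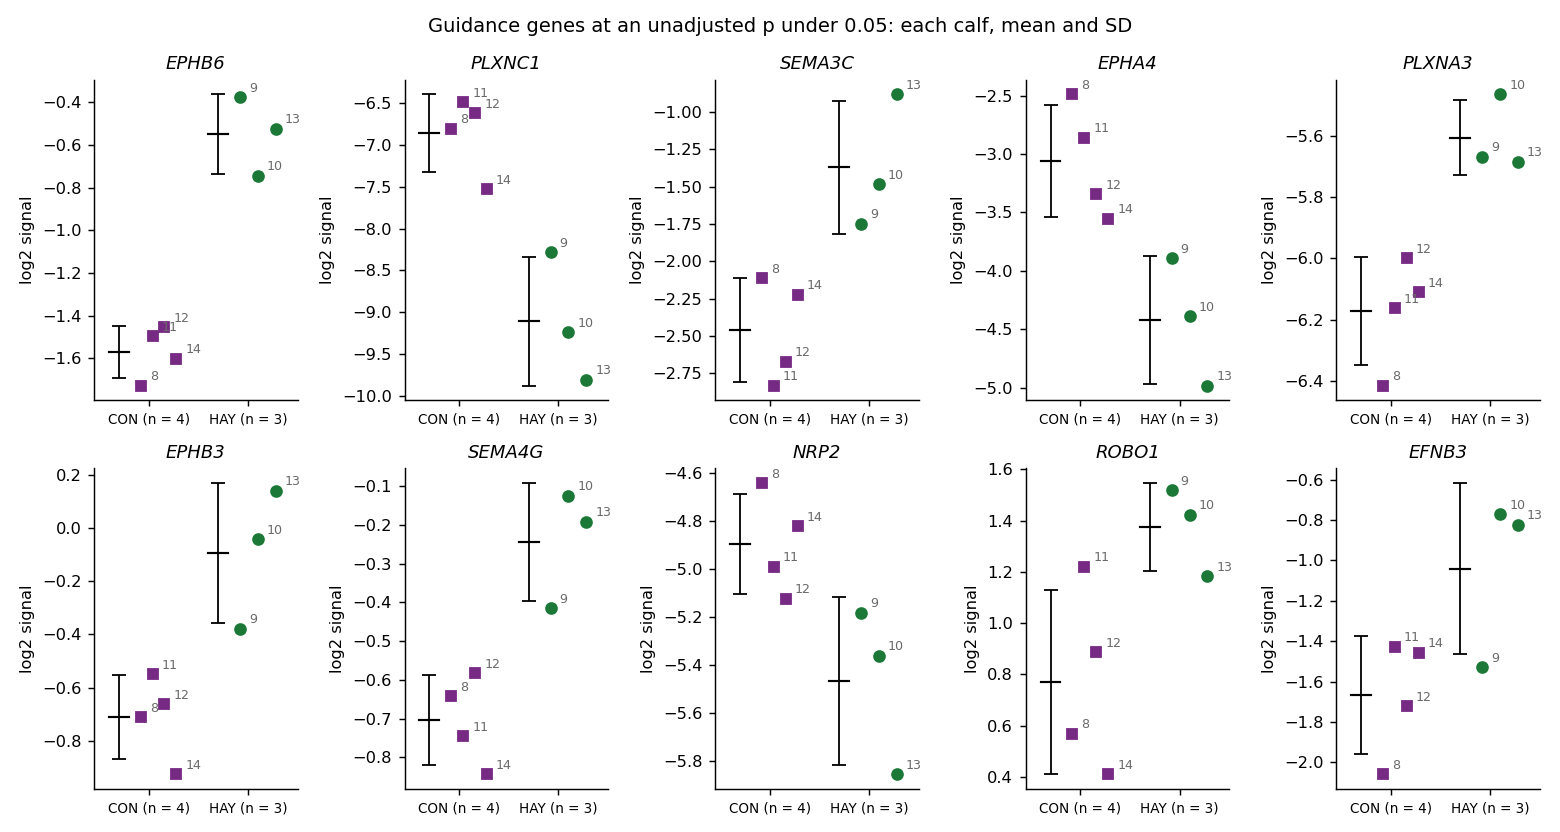
Log2 signal of the 10 guidance genes at an unadjusted p under 0.05, 1 point per calf (calf number beside it), CON as squares and HAY as circles, with the group mean and SD as bars; 0 is the 75th percentile of the array and each panel has its own axis. In EPHB6 the groups lie 0.71 log2 units apart, while in ROBO1 and EFNB3 they overlap.

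Semaphorins were evenly divided, with 7 of 14 tested genes higher and 7 lower in HAY. Their median log2 difference was 0.00, or 0.06 with median centring, 0.03 with quantile normalization and -0.07 with normexp. At an unadjusted p under 0.05 stood SEMA3C and SEMA4G, both higher in HAY and both without overlap (all genes: 13.9% under 0.05, 11.8% without overlap). SEMA3C, a secreted semaphorin that signals through neuropilins and class A and D plexins, was -1.75, -1.48 and -0.88 in HAY calves 9, 10 and 13. For CON, calves 8, 11, 12 and 14 in turn, it was -2.11, -2.83, -2.67 and -2.22, so that even the highest CON calf lay below the lowest HAY calf. The level was 2.13-fold higher in HAY (95% confidence interval 1.38 to 3.27, limma adjusted p = 0.219), and the difference of 1.09 ranged from 0.84 to 1.28 over all 16 alternatives. SEMA4G, a transmembrane semaphorin, stood at -0.41, -0.13 and -0.19 in HAY and at -0.64, -0.74, -0.58 and -0.84 in CON. The step between the groups was small, 0.17 log2 units between the nearest calves, and so was the spread within them. The difference was 1.37-fold (limma adjusted p = 0.262, log2 0.46, SE 0.14), with an unadjusted p of 0.0581 without calves 8 and 13.

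For the other secreted semaphorins tested, the 95% interval included 0. SEMA3F, the partner of NRP2, was -4.95, -5.15 and -5.06 in HAY and -5.54, -5.25, -5.52 and -4.84 in CON, and the interval of the ratio was 0.855 to 1.62. Its difference of 0.23 turned to -0.04 with normexp. SEMA3B, which lies 80.8 kb from SEMA3F on chromosome 22, differed by 0.44 (interval -0.42 to 1.30), and SEMA3E, the ligand of PLXND1, by 0.42 (interval -0.14 to 0.99), or 0.04 with normexp. SEMA3D differed by -0.67 and cleared background on 1 of 3 HAY and 3 of 4 CON arrays. It was -0.20 with normexp, -0.32 without HAY calf 13 and -1.06 without HAY calf 9.

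SEMA4A and SEMA5A, both membrane-bound, were among the steadiest members. SEMA4A, which acts on immune and endothelial cells, stood between 1.95 and 2.38 in all 7 calves, with an interval of the ratio from 0.769 to 1.31. SEMA5A ranged over 0.42 log2 units (ratio interval 0.755 to 1.21). SEMA4B had values of -4.19, -3.68 and -3.89 in HAY and -3.75, -3.48, -3.36 and -4.18 in CON, which overlapped (difference -0.23, interval -0.77 to 0.31). SEMA6A differed by 0.35 (interval -0.05 to 0.75), SEMA4C by -0.09 (interval -0.67 to 0.48) and SEMA7A, the lipid-anchored ligand of PLXNC1, by -0.01 (interval -0.81 to 0.80). In SEMA4F the CON calf 8 stood at -4.09 and the other 6 calves between -6.22 and -5.73. SEMA5B differed by -0.59 (interval -1.51 to 0.32).

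Plexins and neuropilins, the semaphorin receptors, had lower HAY means for 5 of 7 tested genes (all genes: 45.5%) and a median log2 difference of -0.57. Of the 7, 3 stood at an unadjusted p under 0.05 without overlap: PLXNC1 and NRP2 lower and PLXNA3 higher in HAY. Over all genes 13.9% stood under 0.05 and 11.8% did not overlap, and PLXNC1 counts only through HAY values at background. The median of the plexins and neuropilins was -0.19 without calves 8 and 13, -0.36 without HAY calf 13, -0.32 with normexp and -0.33 over genes above background in all 7 calves. PLXNC1, the SEMA7A receptor, was well above background on 3 of 4 CON arrays and on no HAY array. Its values were -8.28, -9.24 and -9.81 for HAY (calves 9, 10, 13 in turn) against -6.80, -6.48, -6.62 and -7.53 for CON (calves 8, 11, 12, 14 in turn). A HAY level was set at the dimmest signal well above background on each HAY array. The CON mean, its dim array taken as measured, was 1.59-fold above that level, which is no strict bound (limma adjusted p = 0.164). PLXNC1 passed the filter through CON alone, so this p and its count among the members without overlap rest on HAY values at background and support nothing further. With normexp, which adds an offset, the log2 difference of PLXNC1 was -0.32 in place of the fitted -2.25, which is no measured fold.

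NRP2, a co-receptor of SEMA3F and of lymphatic growth factors, stood at -5.18, -5.36 and -5.85 in HAY and at -4.64, -4.99, -5.12 and -4.82 in CON. The nearest calves of the groups lay 0.06 log2 units apart. NRP2 was 1.49-fold lower in HAY (limma adjusted p = 0.300, log2 difference -0.57, SE 0.20). The unadjusted p was 0.05 or more without HAY calf 13 (log2 difference -0.38), without CON calf 8 (-0.49), with the slide column as a block (-0.49) and without both calves (-0.29), and with normexp the difference was -0.34. NRP1, a co-receptor of SEMA3A and of vascular growth factor, had -4.53, -5.42 and -5.97 in HAY and -4.13, -4.26, -4.60 and -5.38 in CON. HAY calf 9 and CON calves 12 and 14 reached into the range of the other group, and the difference was -0.72 (SE 0.41, interval -1.67 to 0.24).

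PLXNA3, a SEMA3F receptor that works with NRP2, went the opposite way from it. Its values were -5.67, -5.47 and -5.68 in HAY and -6.41, -6.16, -6.00 and -6.11 in CON, without overlap. This made 1.48-fold (limma adjusted p = 0.232, log2 difference 0.57, SE 0.15), but with normexp the difference was 0.07 (unadjusted p = 0.569). PLXND1, a receptor of vascular endothelium, stood at 1.55, 0.56 and -0.68 for HAY (calves 9, 10, 13 in turn) against 1.93, 1.75, 1.36 and 0.62 for CON (calves 8, 11, 12, 14 in turn). The groups overlapped, with calf 8 highest and calf 13 lowest (difference -0.94, interval -2.18 to 0.30). PLXNB2, a receptor of class 4 semaphorins in epithelia, had values of -4.42, -4.44 and -5.26 in HAY and -4.85, -4.62, -4.90 and -5.18 in CON, and its ratio had an interval of 0.761 to 1.68. For PLXNA2 that interval was 0.707 to 1.26.

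Within the SLIT, ROBO and netrin systems 2 of 6 tested genes had higher means in HAY and 4 lower, with a median log2 difference of -0.54 that came to -0.13 with CON calf 8 left out and to 0.09 with calf 13 left out as well. The receptor ROBO1 was the 1 gene at an unadjusted p under 0.05 (all genes: 13.9%). It stood at 1.52, 1.42 and 1.18 for HAY (calves 9, 10, 13 in turn) against 0.57, 1.22, 0.89 and 0.41 for CON (calves 8, 11, 12, 14 in turn). CON calf 11 reached just above HAY calf 13. The difference was 1.52-fold (limma adjusted p = 0.301, log2 0.60, SE 0.22). The unadjusted p was 0.05 or more without HAY calf 9 (difference 0.53), HAY calf 10 (0.58), CON calf 8 (0.53), CON calf 14 (0.48) or calves 8 and 13 together (0.63).

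SLIT2, the ROBO1 ligand, also had a higher mean in HAY. Its values were -4.70, -4.10 and -4.03 in HAY and -5.16, -4.80, -4.81 and -4.44 in CON, with calf 14 of CON inside the HAY range (difference 0.52, interval -0.01 to 1.06, and 0.21 with normexp). SLIT3, a SLIT of mesenchymal and muscle tissue, spread far more widely, from -1.19 through -2.94 to -3.53 in HAY and over -0.15, -1.16, -1.60 and -1.94 in CON. Its difference was -1.34 (interval -2.78 to 0.10). SLIT1 differed by -0.48 (interval -1.18 to 0.22).

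NTN4, the basement membrane netrin, had -3.42, -4.31 and -6.15 in HAY and -2.43, -3.65, -3.66 and -3.95 in CON. CON calf 8 was the highest and calf 13 the lowest, and the difference was -1.20 (interval -2.71 to 0.30), or -0.11 without these 2 calves. In NTN5 the CON calf 8 stood at -3.25 and the other 6 calves between -6.81 and -6.07. Its difference was -0.59, or 0.23 without CON calf 8.

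Stromal marker levels differed between the calves and are given here beside the members that shared their highest and lowest calf. All 14 tested fibroblast and matrix markers had lower means in HAY (median log2 difference -1.47), as did all 11 smooth muscle markers (-1.25) and 14 of 16 endothelial markers (-0.73). Summed normalised signal was 16.6 to 75.8 in HAY and 51.0 to 242 in CON for the fibroblast list, 15.6 to 36.5 and 36.7 to 86.6 for smooth muscle, and 3.18 to 9.09 and 6.68 to 14.5 for endothelium. None of these 3 lists had a marker on the array that stayed at background in all calves. In 8 of the 44 tested members (18.2%) CON calf 8 was the highest and HAY calf 13 the lowest, against 8.95% of 12561 genes measured on every array. The 8 were EPHA4, EFNA1, SEMA5A, PLXND1, NRP1, NRP2, SLIT3 and NTN4. The same order was seen in 12 of 14 fibroblast, 7 of 11 smooth muscle and 8 of 16 endothelial markers, and in 0 of 21 epithelial markers. All 8 share these extremes by selection. In EPHA4, NRP1, NRP2, PLXND1, SLIT3 and NTN4 HAY calf 10 was second lowest, as in the fibroblast list. In EFNA1 and SEMA5A it was second highest. Leaving out both calves had to raise the log2 difference of members chosen this way, so the values are a description only: -0.89 for EPHA4, -0.23 for NRP1, -0.29 for NRP2, -0.19 for PLXND1, -0.50 for SLIT3, -0.11 for NTN4, 0.31 for EFNA1 and 0.09 for SEMA5A. Without them 6 tested members stood at an unadjusted p under 0.05, where 5.95% of all genes did: EPHB6 (0.96), SEMA3C (0.96), PLXNA3 (0.52), EPHA4, PLXNC1 and EPHA2 (-0.58, unadjusted p = 0.0495). EPHA4 was under 0.05 in each of the 16 alternatives. In bulk tissue fewer cells of a type and less RNA per cell cannot be told apart, and the part of stromal cells in these differences was not tested.

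Other marker lists also differed in level. Of 7 tested myeloid markers 6 had lower means in HAY (median -0.91, summed signal 6.37 to 6.83 in HAY and 9.79 to 15.4 in CON), with ITGAM at background in all calves. PLXNC1, known from myeloid cells among others, was lower in the same calves, and the part of these cells was not tested. Nerve and glia markers had higher means in HAY for 8 of 9 genes (median 0.26, summed signal 1.80 to 2.58 in HAY and 1.48 to 2.10 in CON), with SOX10 and ELAVL4 at background. Lymphocyte markers were higher for 4 of 6 (median 0.22, summed signal 11.9 to 18.3 and 6.69 to 12.7), with CD4 at background, and epithelial markers for 18 of 21 (median 0.25). KRT4, dim in HAY, was among the 3 epithelial markers with lower HAY means.

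**Figure D3:**
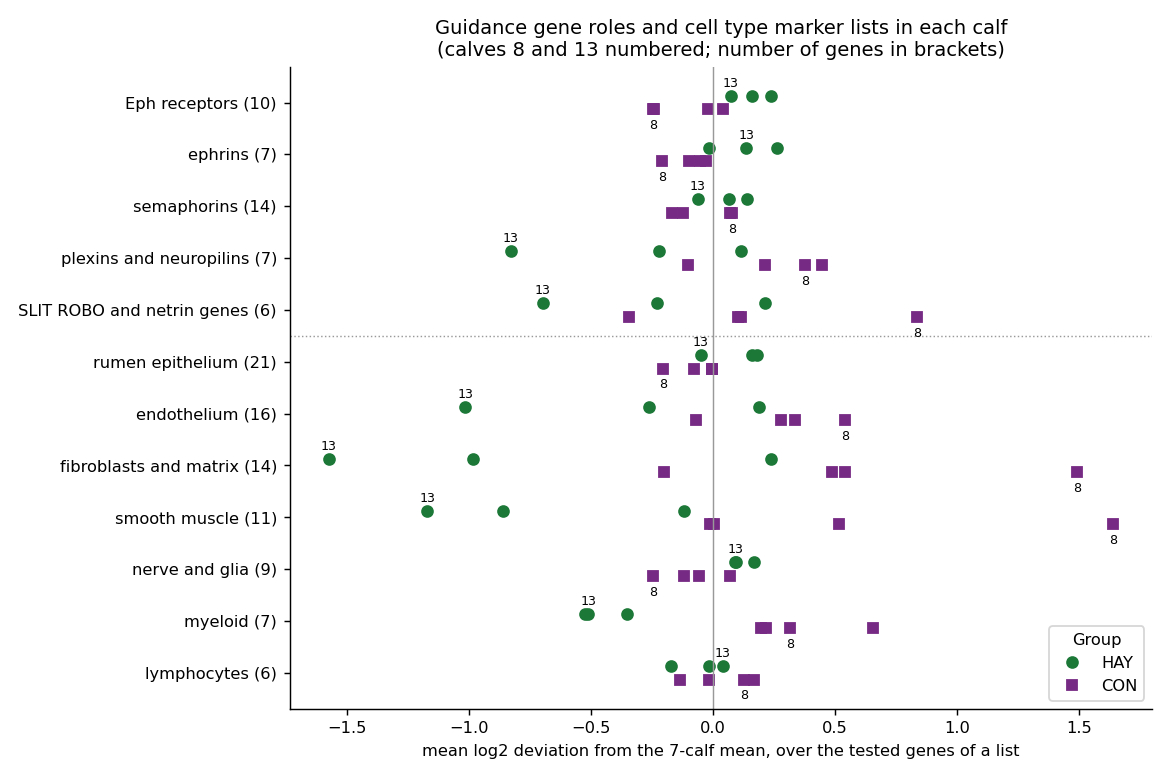
Mean log2 deviation from the 7-calf mean over the tested genes of each guidance role and each cell type marker list (gene number in brackets), 1 point per calf, HAY as circles and CON as squares, calves 8 and 13 numbered. Calf 8 is highest and calf 13 lowest in the fibroblast list, from 1.49 to -1.57, and in the SLIT, ROBO and netrin genes, from 0.84 to -0.70, whereas the 3 HAY calves are the 3 highest in the Eph receptors.

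Downstream and accessory genes of the guidance pathways were taken from a list of 73 names, of which 59 were on the array and 55 were tested. None passed the adjustment (limma), and 5 of 55 (9.09%) stood at an unadjusted p under 0.05, 2 higher and 3 lower in HAY, against 13.9% of all genes. The groups did not overlap in 4 of the 55, where 11.8% of all genes had no overlap. The count under 0.05 was 11 without HAY calf 9, 2 without HAY calf 10 or HAY calf 13 and 3 without CON calf 8, where the share of all genes was 18.6%, 7.85%, 7.81% and 9.57% in turn. ARHGEF15, an ephexin that acts downstream of EPHA4 in vessels, was -5.07, -5.32 and -5.76 in HAY and -4.27, -4.81, -4.68 and -4.66 in CON. Every HAY calf was below every CON calf (limma adjusted p = 0.245, log2 difference -0.78, SE 0.21). ABL1, a tyrosine kinase that binds Eph receptors, was 0.82, 1.62 and 1.52 in HAY and -0.16, 0.77, 0.36 and 0.36 in CON, again without overlap (limma adjusted p = 0.254, log2 difference 0.99, SE 0.28). The actin-severing factor CFL1 differed by 0.75 (SE 0.24) and the SRC-family kinase FYN by -1.29 (SE 0.44). The receptor MET, a partner of class B plexins, differed by -0.42 (SE 0.18). In FYN the groups overlapped, with calf 8 highest, calf 13 lowest and calf 10 second lowest, as in the fibroblast list. The SLIT effectors SRGAP2 and SRGAP3 differed by 0.42 and 0.24 and the semaphorin effector CRMP1 by 0.49, none at an unadjusted p under 0.05. DCC, the netrin receptor, was well above background on no array.

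The 10 members left untested gave at most a ratio to a floor. The mean of the higher group, its dim arrays taken as measured, was set against the other group. Arrays of that other group were raised to the dimmest signal well above background on each. EPHB1 cleared background on 2 of 4 CON arrays and on no HAY array, and its CON mean was 1.27-fold above that floor (HAY -8.09, -7.85 and -8.24, CON -6.55, -7.44, -7.50 and -7.23). For SEMA6D, seen on 1 CON array, this ratio was 1.40-fold, for PLXNA4 1.13-fold and for SEMA3A 1.11-fold, each with 1 CON array well above background. SEMA4D, the ligand of class B plexins, cleared background on 2 of 3 HAY arrays and no CON array (HAY -8.40, -6.37 and -6.84, CON -8.59, -7.22, -8.44 and -7.55), with a HAY mean 1.13-fold above the floor. SEMA3A had HAY values of -7.92, -8.26 and -7.83 and CON values of -7.22, -7.31, -7.20 and -7.78. EPHA3 and EFNB2 were seen on 1 CON array each and allow no fold. For EFNB2, the arterial ephrin, the signals were -7.79, -7.74 and -8.20 in HAY and -8.30, -8.83, -7.65 and -7.26 in CON. PLXNB3 was seen on 1 array of each group, and EPHA7 and NTN1 were not well above background on any array, with NTN1 between -8.94 and -7.74. These ratios concern the group means, carry no sampling error and rest on few arrays above background. They are no strict lower limits, because the dim arrays of the higher group could lie lower than measured.

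**Figure D4:**
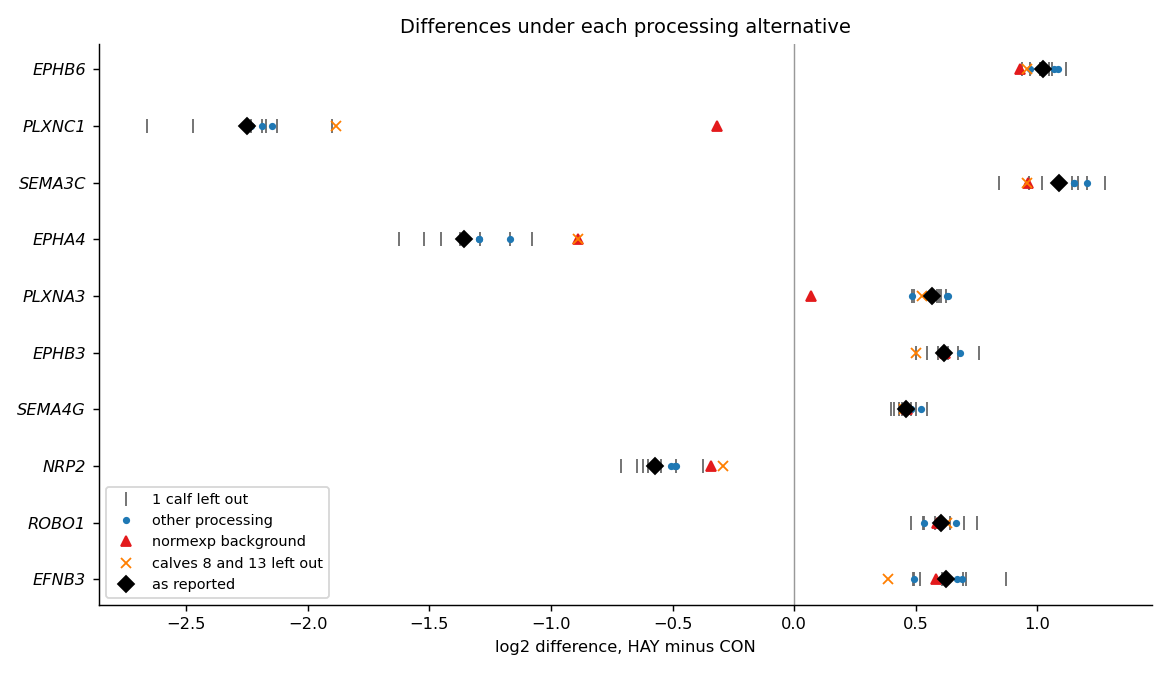
Log2 difference (HAY minus CON) of the 10 members at an unadjusted p under 0.05 as reported (diamonds), with normexp background correction (triangles), with other processing (dots), with 1 calf left out (ticks) and without calves 8 and 13 (crosses). All 10 keep their sign in the alternatives run, while with normexp PLXNC1 stands at -0.32 and PLXNA3 at 0.07.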

How the data were processed

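The scanner files that the authors deposited hold spot intensity on a linear scale. Agilent Feature Extraction 9.5 had subtracted background and spatial trend, per the submitters' processing notes and the file headers, with no scaling between arrays. The authors also deposited log2 values for all arrays in 1 table, which, set against the scanner values, equalled them once the 75th percentile of each array was subtracted (SD of the difference at most 0.000352). By column its medians were -3.14 (HAY calf 9), -3.16 (calf 10), -3.23 (calf 13), -3.11 (CON calf 8), -3.11 (calf 11), -3.11 (calf 12) and -3.13 (calf 14).

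Control spots and outlier spots were left out, saturated spots kept, log2 values of repeated spots averaged and each array scaled to its 75th percentile. Probes well above background on at least 3 arrays were kept, 1 per gene (the brightest). HAY and CON were compared over all 12570 genes with limma 3.58.1 in R 4.3.3 (lmFit, eBayes, Benjamini-Hochberg threshold 0.05), and the fit was tested on simulated data. Symbols came from RefSeq accessions (assembly ARS-UCD2.0, names only), which matched 43 of the 54 members, all under the name in the file. The number of arrays limits the precision. Members and lists were chosen with earlier results of these data known. Values per calf are given for members at an unadjusted p under 0.05 or without overlap, the 2 of smallest p in each role group, and listed members of prior interest in lining epithelia. Alternatives were other background correction and scaling, other filters and probe rules, the authors' table, the slide column as a block and leaving out calves. The other members are given by difference or range.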

Additional observations from a re-analysis of the deposited data

Results flagged for a closer look

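In 3 of the 44 tested members 1 CON calf lay apart from the other 3 by a gap that, as a share of the group's range, exceeded Dixon's 95% critical value, which chance gives in about 1 in 20 groups. EPHA1 was 4.19 in calf 11 and 3.96 to 3.99 in the others, a narrow range in all. SEMA4F was -4.09 in calf 8 and -6.22 to -6.06 in the others. SEMA5B was -7.48 in calf 14 and -6.32 to -6.09 in the others.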

How the results depend on the processing

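Over 16 alternatives (15 for EPHA10, PLXNC1, SEMA3D and SEMA5B, which the filter for signal on all 7 arrays removes) 30 of the 44 tested members kept their sign and no member passed the adjusted threshold (limma, lowest adjusted p = 0.0651, PLXNC1 without HAY calf 9, against a highest adjusted p of 0.502 for that gene). Other filters on dim probes and the mean of a gene's probes leave the difference of a member with 1 probe as it is. The authors' table holds nearly the same values, so these alternatives are no separate check of a difference or its sign. The number lower in HAY at an unadjusted p under 0.05, 3 as reported, was 7 with no filter on dim probes and 5 when slide columns were blocked. Of all genes 7.17%, 6.31% and 9.11% were lower at that p in turn. The fit without the filter also takes in the members dim on most arrays. Leaving out each calf gave 5 to 10 higher, 2 to 8 lower, 8 to 18 without overlap and 2 to 11 partner genes, while 7.81 to 18.6% of all genes stood at an unadjusted p under 0.05 and 14.4 to 31% had no overlap. Without calves 8 and 13, chosen after the data were seen, 3 were higher (all genes: 2.5%) and 14 had no overlap (all genes: 21.6%). Of the partner genes 2 stood under 0.05, where 5.95% of all genes did. Overlap of groups has no value in the blocked fit, in which CON calf 8 shares its column with no other calf and adds nothing to the comparison. Members that turned sign, all with differences of at most 0.592 in size, did so as follows. With normexp EPHB4 was -0.11, EFNB1 -0.0013 and SEMA3F -0.039. With median centring SEMA7A was 0.055. With quantile normalization EPHA1 was -0.072, SEMA4A -0.062, SEMA5A 0.0078 and SEMA7A 0.055. With columns blocked NTN5 was 0.23, SEMA4A -0.049 and SEMA4F 0.34. Without calves 8 and 13 EPHA1 was -0.020, NTN5 0.28, EFNA4 -0.050, SEMA4A -0.10, SEMA4C 0.10, SEMA4F 0.37 and SEMA5A 0.086. With 1 calf left out the range was -0.086 to 0.21 for EFNA1, -0.22 to 0.011 for PLXNA2, -0.19 to 0.29 for SEMA7A, -0.026 to 0.12 for EPHA1, -0.039 to 0.30 for EPHB4, -0.071 to 0.14 for SEMA4A, -0.29 to 0.16 for SEMA4C, -0.14 to 0.037 for SEMA5A, -0.96 to 0.23 for NTN5, -0.37 to 0.34 for SEMA4F and -0.018 to 0.23 for EPHB2. The cause was not tested. No paired analysis was possible because the calf numbers are not shared between the groups. Signal over background limits the 10 members dim on most arrays.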

Other observations

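EPHA8 had separate levels within CON, with calves 11 and 12 at 3.74 and 3.86 and calves 8 and 14 at 1.92 and 1.37, while the 3 HAY calves lay between 3.27 and 4.61. The EPHB2 probe, 198.5 kb away on chromosome 2, showed no such division, with CON values from -2.64 to -1.90. CON calf 8 held the highest value of 2 members of otherwise narrow range, NTN5 and SEMA4F, by 2.82 and 1.64 log2 units over the next calf.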
